A study of Mus musculus with 3 samples.

Results

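The TH2B peaks at the start sites of protein-coding genes are described here. TH2B is a testis-specific form of histone H2B, and a peak is a stretch of the genome where DNA bound to it was recovered from mouse sperm in excess of a control. A peak was taken when its centre lay within 1000 bp of the transcription start site (TSS) of any annotated transcript of a protein-coding gene. This held for 465 of the 1179 TH2B peaks (39.4%, 95% Wilson interval 36.7 to 42.3%), and the remaining 714 are called the other TH2B peaks. The bases within 1000 bp of such a TSS make up 3.70% of the genome. By the same rule, 15 of the 210 peaks of TH2A, the testis-specific form of histone H2A, lay at a start site (7.14%, 4.38 to 11.4%). The share was 32.3 percentage points higher for TH2B than for TH2A (27.2 to 36.2). The paper reports TH2A, but not TH2B, on the mitochondrial chromosome. Whether such peaks were matched to mitochondrial start sites was not checked, which limits the TH2A share and this difference.

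Mature sperm were collected from the caudal epididymis of BALB/c-129-E mice aged 8 to 12 weeks. Their chromatin was released without crosslinking and cut to single nucleosomes with micrococcal nuclease, and it was precipitated with a rabbit antibody against mouse TH2B or mouse TH2A. Unprecipitated mononucleosomal DNA (Input, no antibody) of the same kind of sperm was the control for peak calling. For each variant 2 precipitations were pooled before sequencing, so there is 1 library per variant, no spread between replicates can be given, and all intervals cover counting error only. The peak lists hold positions without height, enrichment or p-value, so the number of reads under a peak cannot be given. Sequence was read for peaks on assembled chromosomes, which are 464 of the 465.

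In sperm formation most histones are exchanged for protamines, small basic proteins that pack the DNA tightly, and a small part of the genome keeps nucleosomes. TH2B replaces most somatic H2B in spermatocytes and spermatids, and some of it stays in mature sperm. Start sites in mammals are often rich in CpG dinucleotides, and many genes share a promoter with a neighbour that is read from the opposite strand, an arrangement called a divergent or bidirectional promoter.

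Sequences of 7 start site peaks are printed to show the range of base composition and the positions that recur in the results. Each is the reference sequence of the whole peak, read on the strand of the gene it lies at, with every CpG in capitals. Slx4 has the higher CpG density of the meiosis genes shown and Rec8 the lower. Twist1 is an upstream peak, Npat lies inside a gene of a divergent pair, Epb41l1 has the highest GC content of all 464 peaks, Tmem267 the lowest among peaks without a near-identical copy elsewhere in the genome, and Muc3 is shared with TH2A.
Slx4, GRCm38 chr16:4003810-4004054, minus strand: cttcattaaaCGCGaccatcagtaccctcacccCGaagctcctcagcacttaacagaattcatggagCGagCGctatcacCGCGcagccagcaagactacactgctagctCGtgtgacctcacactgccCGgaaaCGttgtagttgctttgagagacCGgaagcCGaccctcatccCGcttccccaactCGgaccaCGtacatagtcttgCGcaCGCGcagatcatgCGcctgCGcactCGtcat
Rec8, GRCm38 chr14:55618657-55618872, plus strand: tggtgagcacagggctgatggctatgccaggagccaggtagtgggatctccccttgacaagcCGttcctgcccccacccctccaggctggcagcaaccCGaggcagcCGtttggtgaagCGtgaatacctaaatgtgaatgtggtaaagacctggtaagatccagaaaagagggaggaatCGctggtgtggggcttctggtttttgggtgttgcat
Twist1, GRCm38 chr12:33957086-33957371, plus strand: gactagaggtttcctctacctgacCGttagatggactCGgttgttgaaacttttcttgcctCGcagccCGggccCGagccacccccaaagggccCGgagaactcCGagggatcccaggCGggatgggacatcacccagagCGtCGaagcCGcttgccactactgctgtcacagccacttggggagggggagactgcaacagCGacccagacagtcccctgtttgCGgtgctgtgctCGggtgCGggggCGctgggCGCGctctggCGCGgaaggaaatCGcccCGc
Npat, GRCm38 chr9:53537359-53537589, plus strand: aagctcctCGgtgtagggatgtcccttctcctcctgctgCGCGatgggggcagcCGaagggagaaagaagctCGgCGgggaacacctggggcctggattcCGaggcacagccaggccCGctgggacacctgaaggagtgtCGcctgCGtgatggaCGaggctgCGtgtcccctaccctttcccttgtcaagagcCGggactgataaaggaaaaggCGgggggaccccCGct
Epb41l1, GRCm38 chr2:156421601-156421800, plus strand: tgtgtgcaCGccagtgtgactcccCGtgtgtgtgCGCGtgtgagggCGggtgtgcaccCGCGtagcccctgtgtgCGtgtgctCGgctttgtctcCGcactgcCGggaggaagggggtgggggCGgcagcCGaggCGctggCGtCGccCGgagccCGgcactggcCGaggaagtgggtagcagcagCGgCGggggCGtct
Tmem267, GRCm38 chr13:119489021-119489220, plus strand: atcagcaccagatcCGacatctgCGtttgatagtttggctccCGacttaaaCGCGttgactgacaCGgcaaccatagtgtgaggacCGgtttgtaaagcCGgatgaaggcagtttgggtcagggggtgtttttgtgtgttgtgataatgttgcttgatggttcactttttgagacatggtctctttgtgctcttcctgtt
Muc3, GRCm38 chr5:137149314-137149542, minus strand: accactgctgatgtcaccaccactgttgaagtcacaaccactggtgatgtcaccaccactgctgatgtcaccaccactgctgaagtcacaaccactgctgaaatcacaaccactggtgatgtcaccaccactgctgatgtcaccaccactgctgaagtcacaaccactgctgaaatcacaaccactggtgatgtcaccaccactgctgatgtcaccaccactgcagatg

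The GC content was 56.7% with 21 CpG in 245 bp at Slx4 and 56.0% with 5 CpG in 216 bp at Rec8. These near-equal GC contents went with a ratio of observed to expected CpG of 1.14 at Slx4 and 0.304 at Rec8. The ratio divides the CpG count by the count that the peak's C and G content would give if bases were independent. The Twist1 peak had 64.7% GC and 22 CpG. At Npat the values were 64.5% GC and 15 CpG. Epb41l1 reached 72.5% GC with 22 CpG in 200 bp, against 47.5% and 8 CpG at Tmem267. The Muc3 peak held no CpG. Shifted by 72 bases it matched itself at 96.2% of positions, so a tandem repeat fills this peak, while the best shift at Slx4 matched 33.2%.

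The centres crowded around the TSS and lay mostly on the transcribed side. The median distance from the centre to the nearest TSS was 185.5 bp (quartiles 57.5 and 430.5 bp). Of the 465 peaks, 162 (34.8%, 30.6 to 39.3%) were centred within 100 bp of the TSS and 241 (51.8%, 47.3 to 56.3%) within 200 bp. The centre was downstream of the nearest TSS, inside the transcribed stretch, in 300 peaks (64.5%, 60.1 to 68.7%). It was upstream in 164 (35.3%, 31.1 to 39.7%) and on the TSS in 1, at Acyp1. Upstream bases make up 49.2% of all bases within 1000 bp of a TSS, by the nearest TSS. For 329 peaks every TSS within reach gave the same side, and 120 of these were upstream (36.5%, 31.5 to 41.8%). The side was therefore about the same where all TSSs within 1000 bp gave one side. Transcripts that start farther away were not used for the side. Only 99 centres lay outside all transcripts of the genes within reach, so some centres called upstream lie inside a transcript.

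Scaled to the bases available at each distance, there were 14.2 peaks per Mb in the first 100 bp downstream and 10.5 per Mb in the first 100 bp upstream. In the next 100 bp the values were 10.1 per Mb downstream and 4.27 per Mb upstream. In the bin after that they were 7.54 and 2.79 per Mb. At the far edge, 901 to 1000 bp away, 2.06 per Mb were left downstream and 0.476 per Mb upstream. The density therefore fell faster with distance on the upstream side, and upstream bins from 401 to 500 bp (3.85 per Mb) matched the downstream bin at that distance (3.93 per Mb).

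**Figure D1:**
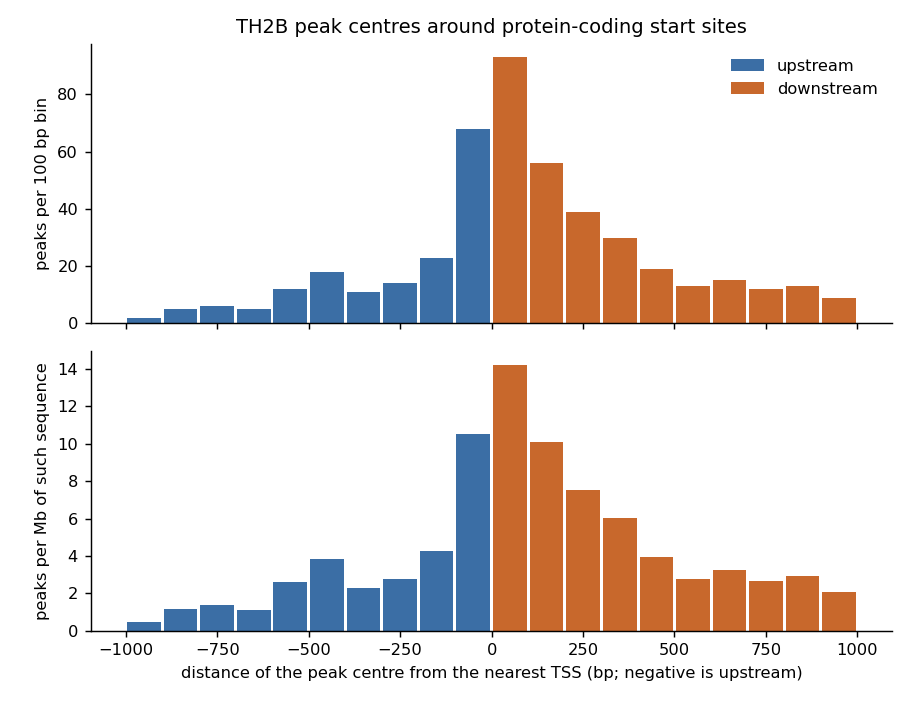
Distance of each TH2B peak centre from the nearest protein-coding TSS in bp, in bins of 100 bp, as the number of peaks (upper panel) and as peaks per Mb of sequence at that distance (lower panel). Blue bars are upstream and orange bars downstream, and the highest bar, 14.2 peaks per Mb, is the first 100 bp downstream.

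Peaks were short, with a median width of 238 bp (200 to 816 bp), against 236 bp for the other TH2B peaks. A start site peak covered its nearest TSS in 192 cases (41.3%, 36.9 to 45.8%). By annotation of the genes within reach, 134 centres lay in a 5′ UTR (28.8%), 138 in an intron (29.7%), 71 in a coding exon (15.3%), 23 in an exon of a transcript without coding sequence (4.95%) and 99 outside all transcripts (21.3%). A centre in several transcripts was counted in the first of coding exon, 5′ UTR, non-coding exon and intron that applied. In 89 peaks (19.14%) a single exon held the whole peak.

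The peaks nearest to a TSS lay at genes of varied function. Acyp1, which encodes an acylphosphatase, had its TSS exactly at the centre of a 395 bp peak (chr12:85280109-85280503). Cklf, a chemokine-like factor, and Kdm5a, a demethylase of histone H3 lysine 4, each had a centre 0.5 bp away. At 1 bp lay the peaks of Arel1, a ubiquitin ligase, of Cenpj, a centriole assembly factor, and of Mrps18b, a protein of the mitochondrial ribosome. A peak of Cyp1b1, a cytochrome P450, and one of Psmd13, a proteasome subunit, were centred 1.5 bp away. At 2 bp followed Med10, a subunit of Mediator, Plrg1, a splicing factor, and Spata24, a gene of spermatid development. All of these peaks covered the TSS, and all but the one at Mrps18b, in a coding exon, had the centre in a 5′ UTR.

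The widest peak, 816 bp (chr13:120026334-120027149), lay at the predicted gene Gm36079. It was followed by Pak7, a p21-activated kinase, with 768 bp, and by Cops4, a subunit of the COP9 signalosome, with 754 bp. Tubb3, the neuronal beta-tubulin, had a peak of 556 bp and Bcl9l, a co-activator of Wnt signalling, one of 551 bp. The peak at Bcl9l was the only one of these 5 that did not cover its TSS, and all 5 were centred downstream, 66.5 bp (Tubb3) to 404 bp (Bcl9l) from it.

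At the edge of the window, the last peaks taken included those of Cemip (974.5 bp downstream), Afap1 (984.5 bp downstream), Gm5580 (986.5 bp downstream) and Nrn1 (995.5 bp upstream). The first left out were downstream of Trim80 (1010.5 bp), Eno1b (1039.5 bp), A930004D18Rik (1040.5 bp), Mfhas1 (1042.5 bp) and Hoxa9 (1043.5 bp).

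Counted by gene, 496 of 22028 protein-coding genes had a TH2B peak centre within 1000 bp of a TSS, which is 2.25% (2.06 to 2.46%). This is the background against which every count of genes is read. A gene with several annotated TSSs covers more bases, and the share was 3.08% (2.72 to 3.48%) for the 7831 genes with at least 5 distinct TSSs and 1.57% (1.26 to 1.96%) for the 4968 genes with 1. The difference was 1.51 percentage points (0.980 to 2.02). Genes with a peak had a median length of 22625 bp, against 17318 bp for all protein-coding genes. Single-exon genes were 4.84% (3.27 to 7.10%) of genes with a peak and 6.10% of all.

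Most genes had a single peak, and 2 genes had 3. At Cyp1b1 the 3 peaks lay close together (chr17:79714130-79715154), and the closest centres were 308.5 bp apart. At Nr2e1, which encodes an orphan nuclear receptor of neural stem cells, they were spread wider (chr10:42579925-42583611), with the closest centres 328.5 bp apart. The 5 nearest pairs at genes with 2 peaks were those of Clasp1, a microtubule plus-end protein (346.5 bp between centres), Ncapg, a condensin subunit (389.5 bp), Slx4, a nuclease scaffold (407 bp), Anxa5 with its divergent neighbour 1810062G17Rik (442.5 bp), and Nkx2-9, a homeobox factor (520.5 bp). At Clasp1, Slx4 and Nkx2-9 the pair flanked the TSS, with 1 peak on either side. At Ncapg both were upstream, and at Anxa5 both were downstream. None of these peaks had a near-identical copy. Another TH2B peak lay less than 1000 bp away from 26 start site peaks (5.59%) and from 114 of the other TH2B peaks (16.0%), a difference of -10.4 percentage points (-13.7 to -6.85).

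Shared divergent promoters held 46 of the 465 peaks (9.89%, 7.499 to 12.9%). Here 2 protein-coding genes on opposite strands had TSSs facing away from each other at most 1000 bp apart, both within 1000 bp of the peak centre. The 46 peaks fell at 45 pairs, since the pair of Anxa5 and 1810062G17Rik had 2. With a partner gene of any annotated type the number rose to 88 (18.9%, 15.6 to 22.7%). A divergent partner was annotated for 99 of the 496 genes with a peak (19.96%, 16.7 to 23.7%) and for 10.9% of all protein-coding genes. Read the other way, 4.10% (3.38 to 4.97%) of the 2412 genes with a divergent partner and 2.02% (1.84 to 2.23%) of the 19616 genes without one had a peak, a difference of 2.08 percentage points (1.33 to 2.97).

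Other properties moved with the presence of a partner. At a pair, 1 peak counts for both genes, and genes with a divergent partner had a median of 5 distinct TSSs against 3 for the others. Among genes with 55 to 65% GC around the 5′ end, the shares were 3.97% (3.07 to 5.14%) with a partner and 2.93% (2.55 to 3.37%) without, a difference of 1.04 percentage points (0.0368 to 2.27). Taken as pairs, 54 of 1233 divergent pairs (4.38%, 3.37 to 5.67%) had a peak near either gene. The intervals by gene treat both genes of a pair as independent, so those for genes with a partner and for both differences are too narrow. The lower bound of 0.0368 therefore cannot be taken to exclude 0. The part of double counting and of the number of TSSs in the difference was not tested separately.

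At the 46 peaks of divergent pairs, the closest TSSs of the pair were 10 to 477 bp apart, with a median of 98 bp. None of the centres lay between these closest TSSs (0 of 46, 95% Wilson interval 0 to 7.71%). At these 46 peaks 7.61% of the positions from which both TSSs are within reach lie between them. This is inside the Wilson interval but above the limit of 6.52% given by the rule used here for other counts of 0. These bounds fall on either side of 7.61%, so an avoidance of the gap is neither shown nor excluded. Each centre lay inside one of the genes, 10.5 to 824.5 bp from its TSS with a median of 190.5 bp. Peaks themselves are wider than many of these gaps, and 13 of the 46 reached into the gap while 5 covered both TSSs. The closest TSSs leave the narrowest gap, however, and genes have others. For 8 peaks (17.4%) the centre lay between some pair of annotated TSSs of the same genes, among them Mrps18b/Ppp1r10 (97 bp between the TSSs) and Sirt3/Psmd13 (163 bp). With 1 TSS per gene, its 5′ end, 20 peaks (5.51%) were at a divergent pair and 0 of 20 centres lay between the TSSs, which allows a share of up to 15%, with 9.33% of such positions between them.

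**Figure D2:**
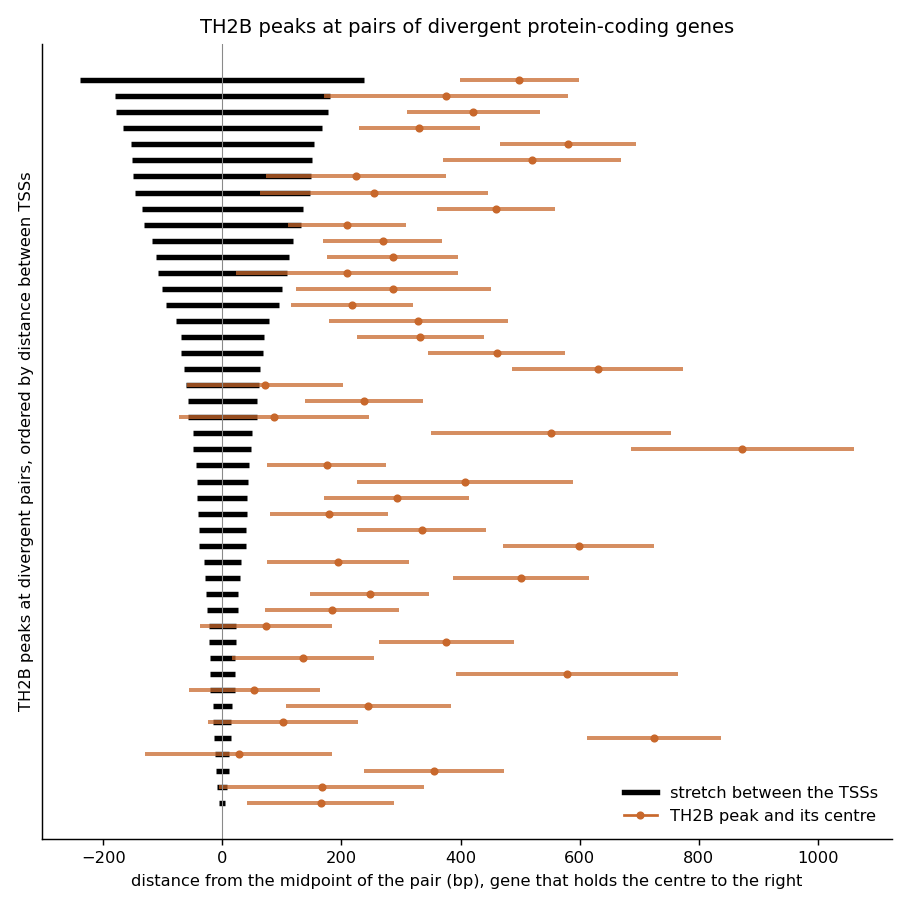
The 46 TH2B peaks at divergent pairs of protein-coding genes, one row each, ordered by the distance between the closest TSSs of the pair. The black bar is the stretch between these TSSs, the orange bar the peak with its centre as a dot, in bp from the midpoint of the pair, drawn so that the gene holding the centre lies to the right. All 46 dots lie to the right of the black bar.

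The pairs with the shortest distance between TSSs were Ncstn, a gamma-secretase subunit, with Copa, a coatomer subunit (10 bp, centre 160 bp into Copa), Lrrc34 with Lrriq4 (17 bp, centre 158.5 bp into Lrrc34), and Snrpa, a spliceosomal protein, with BC024978 (21 bp, centre 345 bp into BC024978). At Cct6b/Zfp830, Mrpl46/Mrps11, Arel1/Fcf1 and Mrps18b/Ppp1r10 a single peak covered both TSSs. Mrpl46 and Mrps11 both encode proteins of the mitochondrial ribosome. The pair of Atm, the kinase that signals DNA double-strand breaks, and Npat, a coactivator of histone gene transcription, had TSSs 307 bp apart and the centre 427 bp into Npat, in an intron. At Rpgrip1l/Fto the centre lay 77.5 bp into Rpgrip1l, a gene of the ciliary transition zone, with 263 bp between the TSSs. At Commd1 and Zrsr1 the TSSs were 356 bp apart and the centre was 243.5 bp downstream of the Commd1 TSS used. This is an internal TSS of Commd1 (chr11:22896136-22982382), and Zrsr1 starts inside Commd1, so the genes are nested. Any annotated TSS of a gene could form a pair, so other nested genes can be among the pairs.

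Start site peaks were GC-rich. Their median GC content was 61.3% (quartiles 59.0 and 63.5%), against 58.2% (54.5 and 61.1%) for the other TH2B peaks. At least 55% GC was found in 435 of 464 start site peaks (93.8%) and 492 of 676 of the others (72.8%), a difference of 20.97 percentage points (16.8 to 24.9). The median ratio of observed to expected CpG was 0.647 against 0.366. A near-identical copy elsewhere in the genome, at least 95% identical over at least 80% of the peak, was found for 31 of 464 start site peaks (6.68%) and 252 of 676 of the others (37.3%), a difference of -30.6 percentage points (-34.8 to -26.2). Among peaks without a copy the medians were 61.5% GC and a ratio of 0.663 at start sites, against 59.8% and 0.429 elsewhere. The distance in GC content was thus smaller among unique peaks. The 31 start site peaks with a copy had a median of 55.9% GC.

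The peak itself was richer in GC than the sequence beside it. The flanks of the start site peaks had a median GC content of 55.9%, and the peak exceeded its own flanks by a median of 5.82 percentage points. The peak was the richer in 395 of 464 (85.1%, 81.6 to 88.1%). Among the other TH2B peaks this held for 626 of 676 (92.6%), with a median difference of 6.25 points, so this contrast was not larger at start sites. GC content also affects amplification and sequencing, and its part in the calling of these peaks was not tested.

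The share of genes with a peak was 2.27% at CpG-rich start sites and 2.25% at the others. A start site was called CpG-rich when the 500 bp on either side of it had at least 55% GC and a CpG ratio of at least 0.75. By the 5′ end of the gene, 123 of 5417 genes with a CpG-rich start (95% interval 1.91 to 2.70%) and 372 of 16521 others (2.04 to 2.49%) had a peak, a difference of 0.0189 percentage points (-0.416 to 0.501). Read by the nearest TSS of each peak, 108 of 464 peaks (23.3%, 19.7 to 27.3%) lay at a CpG-rich one, and 57.5% did with a CpG ratio of 0.5 as the threshold. Of all protein-coding genes 24.7% had a CpG-rich 5′ end, close to the 23.3%. Their share at a ratio of 0.5 was not computed, so the 57.5% has no background beside it. CpG-rich sites were 32.9% (26.2 to 40.4%) of those with an upstream peak and 18.1% (14.1 to 22.8%) of those with a downstream peak, a difference of 14.9 percentage points (6.63 to 23.4).

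The share of genes with a peak was highest in the middle of the range of GC content. It was 0.0994% (0.0273 to 0.362%) for genes with less than 40% GC around the 5′ end and 0.881% (0.565 to 1.37%) from 40 to 45%. It was 3.02% (2.54 to 3.59%) from 50 to 55% and 3.41% (2.92 to 3.98%) from 55 to 60%. From 65 to 70% it was 1.84% (1.33 to 2.55%), and from 70% on 2.08% (1.35 to 3.19%). The CpG ratio gave the same shape, with 0.581% (0.405 to 0.833%) of genes below a ratio of 0.2, 3.54% (2.95 to 4.26%) from 0.4 to 0.6, 3.48% (3.03 to 3.99%) from 0.6 to 0.8 and 2.51% (2.07 to 3.04%) from 0.8 to 1. Only 3 of 404 genes with a ratio of 1 or more had a peak (0.743%, 0.253 to 2.16%).

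**Figure D3:**
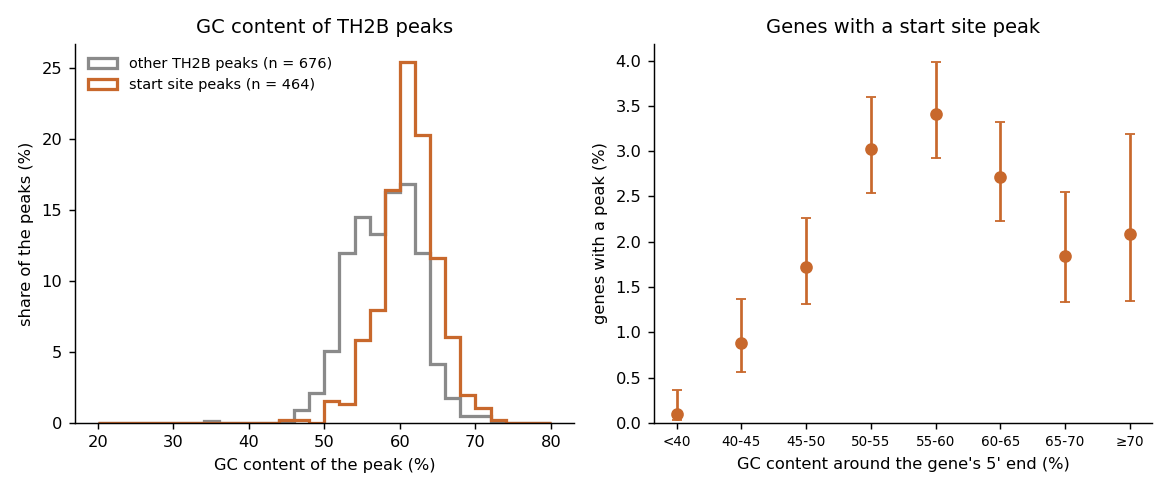
Left, GC content in percent of the 464 TH2B start site peaks (orange) and the 676 other TH2B peaks (grey), as a share of each set. Right, the percent of protein-coding genes with a start site peak by GC content of the 500 bp on either side of the gene's 5′ end, with 95% Wilson intervals, highest at 3.41% from 55 to 60% GC.

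Short promoter motifs were searched on both strands in the central 200 bp of each peak. The GC box GGGCGG was in 156 of 464 start site peaks (33.6%, 29.5 to 38.0%) and 113 of 676 others (16.7%), a difference of 16.9 percentage points (11.8 to 22.0). The ETS core CCGGAAG was in 8.62% against 2.66%, a difference of 5.96 points (3.27 to 9.02), and the RFX motif GTTGCC in 11.4% against 6.36%, a difference of 5.06 points (1.73 to 8.66). The cAMP response element TGACGTCA was rare, in 7 start site peaks and 2 others, a difference of 1.21 points (0.115 to 2.80). For the CCAAT box CCAAT (18.8% against 19.7%), the TATA box TATAAA (1.72% against 1.04%), the E-box CACGTG (5.17% against 4.44%) and the NRF1 core GCATGCGC (1.51% against 0.888%) the interval of the difference spanned 0. All 8 motifs were searched in both sets, and the sets differ in GC content.

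In the promoters themselves, taken as 250 bp before and 50 bp after the 5′ end of each gene, the GC box was in 55.8% (51.4 to 60.1%) of promoters of the 495 genes with a peak on assembled chromosomes and in 43.0% of all 21938. Among promoters with 55 to 65% GC around the 5′ end the shares were 65.4% (59.3 to 71.1%) and 64.2%. The CCAAT box behaved the other way, with 40.4% (36.2 to 44.8%) against 39.0% over all promoters and 47.97% (41.8 to 54.2%) against 38.6% at this GC content. The cAMP response element was in 4.44% (2.95 to 6.64%) of promoters with a peak and 2.43% of all, and at this GC content in 6.91% (4.36 to 10.8%) and 3.42%. The ETS core was in 17.8% (14.7 to 21.4%) against 10.8% of all, and at this GC content in 19.5% (15.0 to 24.9%) against 17.0%. The TATA box was in 8.69% (6.51 to 11.5%) against 12.6%, and at this GC content in 7.32% (4.68 to 11.3%) against 6.36%. The RFX motif, which was more frequent in start site peaks than in the others, was in 11.7% (9.17 to 14.8%) of promoters with a peak and 12.0% of all, and at this GC content in 11.0% (7.65 to 15.5%) and 12.4%. The E-box was in 8.89% (6.69 to 11.7%) against 7.75%, and at this GC content in 11.8% (8.33 to 16.4%) against 10.5%. The NRF1 core was in 3.64% (2.31 to 5.67%) against 3.71%, and at this GC content in 5.28% (3.11 to 8.83%) against 5.35%. The sets overlap, since genes with a peak are among all genes, and a match of letters is no evidence that a factor binds there.

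By kind of gene, the peaks were spread over many lists, each in small numbers. Against the background of 2.25%, meiosis genes had the highest share, 6 of 52 (11.5%, 5.397 to 22.97%). Next came cytosolic ribosomal proteins with 6 of 82 (7.32%, 3.396 to 15.1%), translation factors and tRNA synthetases with 7 of 106 (6.60%, 3.24 to 13.01%), imprinted genes with 4 of 61 (6.56%, 2.58 to 15.7%), cilium and centrosome genes with 10 of 168 (5.95%, 3.27 to 10.6%) and spermatogenesis genes with 5 of 85 (5.88%, 2.54 to 13.04%). Of the imprinted genes, Commd1 and Zrsr1 both count through a single shared peak. The interval treats them as independent and is too narrow, so this list is not shown to lie above the background. The lists overlap, were chosen with earlier results of these data known, and were not tested as sets. Those for meiosis, spermatogenesis and imprinting were made by hand. From these same data the authors had already named Mov10l1, Slx4, Hus1b, Sycp2 and Rec8 as associated with TH2B. They had also named Spata24, Poc1a, Meig1 and Gopc, so the high shares of meiosis and spermatogenesis genes are no independent result.

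Of the meiosis genes, Mov10l1, a helicase of the piRNA pathway, had its centre 41 bp upstream of its nearest TSS, in an annotated 5′ UTR. Terb2, which ties telomeres to the nuclear envelope, had it 64.5 bp upstream of its nearest TSS but 137.5 bp downstream of another. Slx4, also needed for DNA crosslink repair, had 1 peak on each side, the nearer 162 bp upstream. Hus1b, a paralog of a checkpoint clamp subunit, had its centre 380.5 bp downstream in a coding exon, Sycp2, a protein of the synaptonemal complex, 416.5 bp downstream in an intron, and Rec8, the meiotic cohesin subunit, 727.5 bp downstream in a coding exon. These 6 genes thus had 3 nearest peaks upstream and 3 downstream, and none had a near-identical copy or overlapped TH2A.

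Among ribosomal proteins, Rpl30 (23.5 bp downstream) and Rpl37 (40.5 bp downstream) were centred close to the TSS, and Rpl4 (306.5 bp downstream) and Rpl13 (465 bp upstream of its nearest TSS, in a coding exon of another transcript) farther away. The median distance of the list was 32 bp. Mitochondrial ribosomal proteins had 4 of 78 (5.13%, 2.01 to 12.5%), namely Mrps18b, Mrpl22 (173 bp downstream) and the pair Mrpl46 and Mrps11 with 1 shared peak. Of the translation factors, Eif6, which keeps ribosomal subunits apart, had its peak 22.5 bp downstream and Eif4a1, the cap complex helicase, 77.5 bp upstream. Eif4e, the cap-binding protein, had its peak 242.5 bp upstream and Eif5a, an elongation factor, 282.5 bp downstream. Eef1a2 (585.5 bp), Eif4ebp1 (873.5 bp) and Eif1b (895.5 bp) were downstream in introns.

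Proteasome and ubiquitin genes had 5 of 162 (3.09%, 1.33 to 7.02%). Psmd13, Psmc3 (7.5 bp) and Psme1 (25.5 bp) had the centre upstream of the nearest TSS, though in an annotated 5′ UTR. Psma1 (76.5 bp) had it downstream. RNA processing genes had 10 of 197 (5.08%, 2.78 to 9.09%). The nearest were the helicase genes Dhx8 (8 bp downstream) and Ddx56 (12.5 bp downstream), Srsf5, a splicing factor (14 bp upstream), Rbm15, an adaptor of RNA methylation (14.5 bp downstream), and Snrpa (27 bp downstream). The median distance of the list was 58.8 bp.

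Cilium and centrosome genes had peaks at Poc1a, a centriole protein (7.5 bp downstream), Cfap46, a protein of the axoneme (90.5 bp upstream), Invs (120 bp downstream), Rsph3a, a radial spoke protein (132.5 bp upstream), and Dnah11, an axonemal dynein (150.5 bp downstream), as the nearest, and also at Odf3b, Tekt5, Alms1, Cfap161 and Dnah14. Copies elsewhere in the genome were found for 3 of these 10, Cfap161, Dnah14 and Rsph3a. Spermatogenesis genes had Spata24, Poc1a, Meig1 (32.5 bp upstream), Gopc, which is needed for the acrosome (165 bp upstream), and H1fnt, a linker histone of spermatids (660 bp downstream in a coding exon). The imprinted genes were Tssc4 (14 bp upstream), Dlk1, a paternally expressed membrane ligand (79.5 bp downstream), and Commd1 with Zrsr1, which share 1 peak.

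Developmental transcription factors outside the Hox clusters had 14 of 257 (5.45%, 3.27 to 8.93%). The nearest were Pax6 (9 bp downstream) and Pax9 (25.5 bp upstream) of the paired-box family, Zic5 (20 bp downstream), Nkx2-3 (98.5 bp upstream) and Gata6 (128 bp downstream). Nkx2-9, Tbx20, Tfap2a, Nkx2-1, Twist1, Pax1, Irx5 and Gli1 were among those that followed, from 185.5 bp at Nkx2-9 to 816.5 bp at Gli1. Twist1, a basic helix-loop-helix factor of mesoderm, had its peak 442.5 bp upstream, outside all transcripts. Of the Hox genes 2 of 39 had a peak (5.13%, 1.42 to 16.9%), Hoxb3 with the nearer of 2 centres at 20.5 bp and Hoxa9 at 343 bp, both downstream. Of 100 signalling ligands and secreted inhibitors only Inhba, an activin subunit, had one, 599 bp downstream (1%, 0.177 to 5.45%).

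Several lists lay near the background. C2H2 zinc finger genes had 14 of 461 (3.04%, 1.82 to 5.03%), with the nearest at Zfp936 (9 bp), Zfp830 (15.5 bp), Zfp938 (41.5 bp), Zfp60 (42 bp) and Zfp800 (96.5 bp). The nearest peak had copies at 4 of the 14, Zfp607b, Zfp936, Zfp990 and Zfp991. Chromatin modifiers, listed by gene symbol, had 4 of 161 (2.48%, 0.970 to 6.21%). These were Kdm5a, Sirt3, the histone chaperone Asf1b and the remodeller Chd4. Sirt3 is counted by its symbol, and its peak, 161.5 bp away, is shared with Psmd13, whose TSS is nearer (1.5 bp). Histone genes had 3 of 101 (2.97%, 1.02 to 8.37%), the variant H2afz and the linker histones Hist1h1b and H1fnt. The list of cell cycle and chromosome segregation genes, drawn up by gene symbol, had 6 of 206 (2.91%, 1.34 to 6.21%). They were Cenpj, Ncapg (27.5 bp upstream), Esco2, a cohesin acetyltransferase (37.5 bp downstream), Cdc42ep4, Cdc5l and Hjurp. Membership by symbol, as for Cdc42ep4 and Cdc5l, does not establish that function. DNA repair genes had 3 of 81 (3.70%, 1.27 to 10.3%), Top3b (7.5 bp upstream), Slx4 and Hus1b.

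Chemosensory receptors of the olfactory, vomeronasal and taste families had no peak in 1517 genes, which allows a share of up to 0.198%. Keratins, defensins and skin barrier proteins had none in 206 genes, which allows up to 1.46%. Of all genes with less than 40% GC around the 5′ end, 0.0994% had a peak. The GC content of these lists was not computed, and its part in the absence of peaks was not tested.

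**Figure D4:**
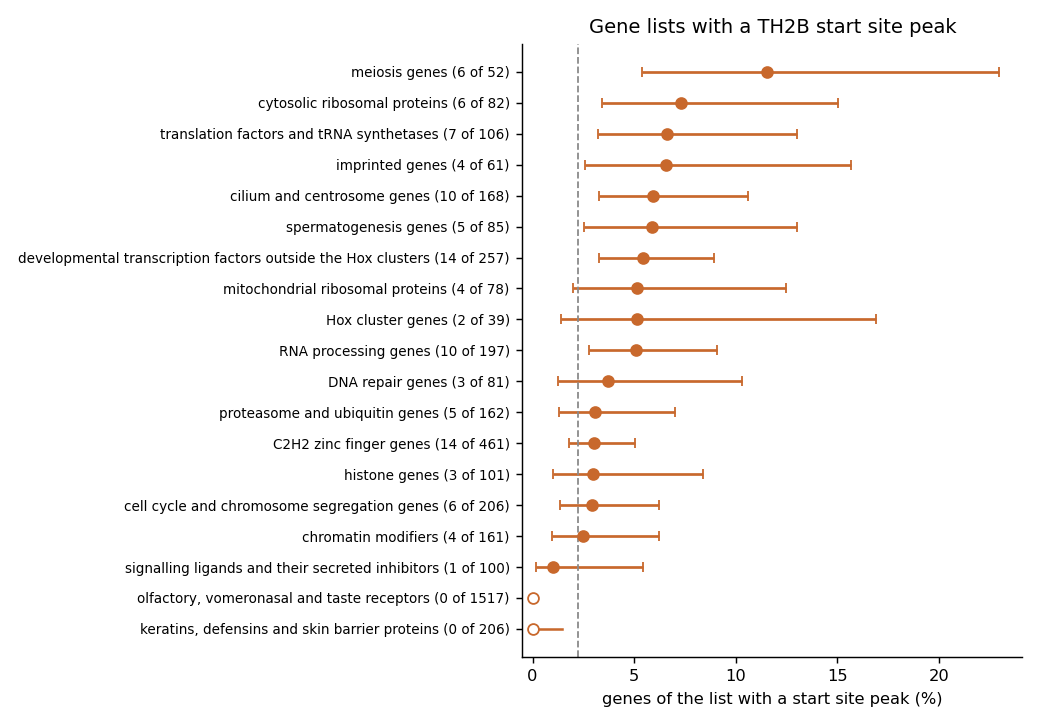
Percent of the genes of each of 19 lists with a TH2B start site peak, with 95% Wilson intervals. The dashed line is the 2.25% of all protein-coding genes, open circles are lists with no such gene and a line to the limit that a count of 0 allows, and meiosis genes lie highest at 11.5%. The meiosis list was made by hand with earlier results of these data known.

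Overlap with TH2A was rare at start sites. A TH2A peak overlapped 6 of the 465 start site peaks (1.29%, 0.593 to 2.79%) and 61 of the 714 other TH2B peaks (8.54%, 6.71 to 10.8%), a difference of -7.25 percentage points (-9.64 to -4.89). The 6 lay at 4931408C20Rik, Dnah14, an axonemal dynein, the predicted genes Gm36079 and Gm21190, the zinc finger gene Zfp990 and Muc3, an intestinal mucin. Their GC content was 52.0% at 4931408C20Rik and Muc3, 52.2% at Zfp990, 52.5% at Gm21190, 54.7% at Dnah14 and 55.9% at Gm36079, all below the median of 61.3%. Of these 6 peaks 4 had copies elsewhere in the genome, with 1 at Gm36079, 3 at Dnah14, 7 at Zfp990 and 23 at Gm21190. Without the peaks that have a copy, the share was 0.461% (2 of 434, of which 433 were searched for copies). The same share is not given for the other TH2B peaks, which more often had a copy. The part of copies in the difference of -7.25 points was not tested. The printed Muc3 sequence had no copy and is a repeat within itself. How reads with several possible positions were placed is not given in the sources used here, and its part in these overlaps was not tested.

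Start site peaks were found on every autosome. The share of genes with a peak ran from 1.25% (0.660 to 2.36%) on chromosome 19 to 4.33% (3.25 to 5.74%) on chromosome 8, with 3.82% (2.72 to 5.34%) on chromosome 13 and 4.09% (2.69 to 6.18%) on chromosome 18. Chromosome 8 held 38 start site peaks (8.17%) and 100 of the other TH2B peaks (14.0%), a difference of -5.83 percentage points (-9.32 to -2.14), so the start site peaks were less concentrated there than the rest of the list. No start site peak lay on X or Y (0 of 465, which allows a share of up to 0.645%), while 11 of the 714 other TH2B peaks did (1.54%). The X chromosome carries 948 and the Y chromosome 183 of the protein-coding genes, 4.30% and 0.831%. Each sperm carries only one of these chromosomes, and the depth of the library on them was not analysed here.

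**Figure D5:**
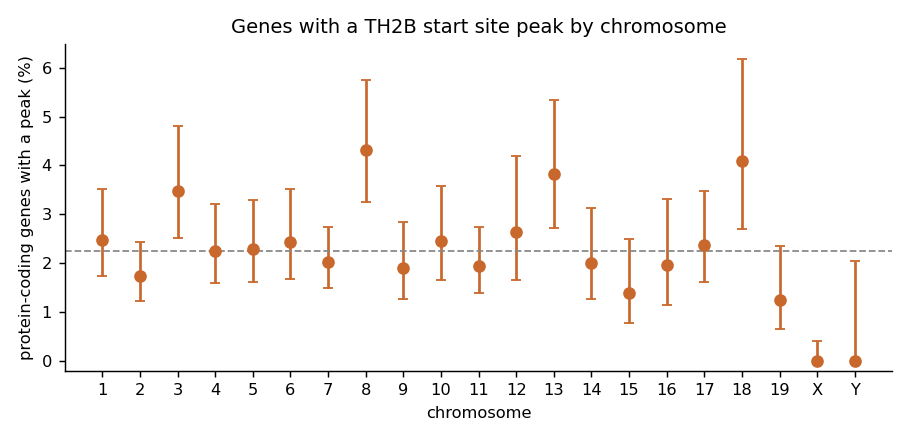
Percent of the protein-coding genes of each chromosome with a TH2B start site peak, with 95% Wilson intervals. The dashed line is the 2.25% of all protein-coding genes, chromosome 8 is highest at 4.33%, and X and Y are at 0.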

How the data were processed

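The authors' reads went through Trimmomatic and BWA MEM (mm10), SAMtools dropped those that did not align, and MACS2 2.1.3 called peaks over Input under a p-value cutoff. Pooled precipitations gave 1 peak list per variant. The unit of the deposited lists is a position in bp, with chromosome, start, end and width of each peak, both ends included. No peak score was used here.

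Peaks were placed on GENCODE M21 start sites and GRCm38.p6 (RefSeq) sequence with Python 3.11.15, NumPy 2.4.6 and SciPy 1.17.1, and copies were sought with BLAST+ 2.17.0. Intervals of shares are Wilson and of differences Newcombe, both at 95%, for counting error only. A count of 0 was given 3 counts as its limit. With 1 library per variant no test was made. Placement was tested on simulated peaks.

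Genes named were those of the nearest, widest, edge, repeated and TH2A-sharing peaks, of divergent pairs and of the gene lists. The printed sequences, the pairs with the shortest gaps, Atm/Npat and Rpgrip1l/Fto were chosen after their values were seen. The members and lists were chosen with earlier results of these data known. Input was not analysed on its own, and some genes that meet the rule are not reported here.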

Additional observations from a re-analysis of the deposited data

How the results depend on the processing

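Of 63 recomputed values, 59 stayed within the 95% interval of the reported share or median, or within 1.5 times the reported count. The number of start site peaks was 363 to 549, of genes 394 to 580, the upstream share 32.2 to 36.5% and the median GC content 61.2 to 61.5%. The share at divergent promoters was 5.51% with 1 TSS per gene and 18.9% with partner genes of any type, against 9.89%. Without peaks that have a near-identical copy, 0.461% overlapped TH2A, against 1.29%. At a CpG ratio of 0.5 in place of 0.75, 57.5% lay at CpG-rich start sites, against 23.3%. The share of all genes at a ratio of 0.5 was not computed. Wider TSS sets and lower thresholds admit more by construction. A stricter peak threshold was not run, since no score was used. No replicates exist. The paper gives the read number of each library, but the depth at each site was not analysed here, which limits every absence of a peak.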
